A study of Mus musculus with 27 samples.

Results

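The genes that carry glucose into heart cells, break it down to pyruvate and lactate and store it as glycogen were followed in whole mouse hearts in which thyroid hormone synthesis, alpha-adrenergic receptors and beta-adrenergic receptors were blocked alone or together. The set holds 31 genes of the 51826 in the count table, named by symbol for the step they serve: glucose uptake and phosphorylation (4 genes), upper glycolysis and its control (9), lower glycolysis (8), pyruvate and lactate (5) and glycogen (5). All 31 had enough reads to be tested. The hearts came from CD-1 mice, an outbred stock, at postnatal day 14. In the groups with PTU (propylthiouracil, which blocks the making of thyroid hormone) the mothers ate iodine-deficient chow with 0.15% of the drug from E13.5, before birth, onward. Pups received daily injections under the skin from postnatal day 1 of PHE (phenoxybenzamine, an alpha-adrenergic blocker) at 10 µg/g/day, PRO (propranolol, a beta-adrenergic blocker) at 20 µg/g/day, or both, and the control groups are labelled saline. Libraries came in 2 sequencing sets, with 3 hearts in each of 9 groups. Set A held a saline group, the groups PTU+PHE+PRO and PTU+PHE, and their counterparts without PTU, PHE+PRO and PHE. Set B held a saline group as well, PTU, PTU+PRO and PRO. No label says whether the saline libraries of both sets came from the same hearts. Every group with PHE is in set A, and neither PTU alone nor PRO alone was run there.

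Glucose enters cells through the GLUT transporters, is trapped by hexokinase as glucose 6-phosphate, and then either runs down glycolysis to pyruvate or is stored as glycogen. Pyruvate enters mitochondria through the MPC carrier or becomes lactate, which leaves or enters the cell through monocarboxylate transporters. The fetal heart relies heavily on glucose and lactate, and after birth the heart turns to fatty acids. Along with this, muscle forms of several glycolytic enzymes and the insulin-responsive transporter GLUT4 gain over the forms of the early heart.

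The libraries held 30791885 to 78913915 assigned reads, and mitochondrial genes took 12.0% to 19.7% of them. The 12 libraries with PHE had fewer reads of long transcripts: the median log2 deviation of genes over 8 kb minus that of genes under 1 kb ran from -1.15 to 0.02, against 0.05 to 0.56 in the 15 other libraries. The lowest values were those of PTU+PHE+PRO heart 2 (-1.15) and PTU+PHE heart 3 (-1.13). Since the mothers took PTU and no label says which hearts were littermates, p-values measure the spread between these hearts, and effects of litter and of PTU cannot be told apart. In whole hearts, fewer cells of a type and less RNA per cell cannot be told apart either. Levels are given as CPM, read counts relative to library size after TMM scaling, which evens out the composition of libraries. A gene was called higher or lower at a Benjamini-Hochberg adjusted p under 0.05 in edgeR's quasi-likelihood test over all 19119 genes tested, and ± marks the standard error (SE) of a log2 fold change, with n = 3 hearts per group.

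The hexokinase and enolase pairs are shown because, among the isoform pairs with a promoter sequence for both genes, their ratios changed most with PTU. Each sequence is the 250 bases before the gene's RefSeq start (build GRCm38.p6, 5′ to 3′), and where RefSeq has several starts (2 for Hk1, 3 for Eno1) the one nearest to the 5′ end of the gene's annotated span was taken, with capitals marking AGGTCA (the core motif of nuclear receptors), ACGTG (the core of the HIF site) and GGGCGG (the GC box), each on either strand.
Hk1, chr10:62379909-62380158, minus strand: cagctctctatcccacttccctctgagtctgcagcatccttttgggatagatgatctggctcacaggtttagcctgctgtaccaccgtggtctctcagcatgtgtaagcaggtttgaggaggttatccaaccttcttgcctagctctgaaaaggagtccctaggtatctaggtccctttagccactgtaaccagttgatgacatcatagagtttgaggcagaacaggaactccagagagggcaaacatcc
Hk2, chr6:82774455-82774704, minus strand: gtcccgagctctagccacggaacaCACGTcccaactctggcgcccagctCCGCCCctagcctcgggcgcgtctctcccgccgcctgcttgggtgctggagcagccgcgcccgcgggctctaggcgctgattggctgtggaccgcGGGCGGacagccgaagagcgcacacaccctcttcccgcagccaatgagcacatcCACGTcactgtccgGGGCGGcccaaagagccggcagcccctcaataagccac
Eno1, chr4:150236458-150236707, plus strand: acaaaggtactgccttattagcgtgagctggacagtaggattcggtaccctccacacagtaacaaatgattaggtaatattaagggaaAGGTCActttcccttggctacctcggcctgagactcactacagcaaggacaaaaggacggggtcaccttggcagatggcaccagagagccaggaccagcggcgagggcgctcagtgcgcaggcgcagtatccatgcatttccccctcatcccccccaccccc
Eno3, chr11:70656926-70657175, plus strand: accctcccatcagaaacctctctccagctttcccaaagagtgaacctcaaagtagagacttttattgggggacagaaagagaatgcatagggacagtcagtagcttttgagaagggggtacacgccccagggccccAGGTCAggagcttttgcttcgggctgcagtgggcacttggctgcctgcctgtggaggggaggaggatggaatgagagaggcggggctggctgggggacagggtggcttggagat
The Hk2 stretch held 2 ACGTG and 3 GGGCGG matches, the Hk1 stretch none of the letters searched, and the Eno1 and Eno3 stretches 1 AGGTCA each. RefSeq windows of 300 bases, which run to 50 bases after the start, were matched for 30 of the 31 genes, the exception being Slc2a4. ACGTG stood in 13 of the 30 (43.3%), against 19.6% of all 32851 promoter windows, and GGGCGG in 19 (63.3%), against 35.7%. AGGTCA stood in 4 (13.3%, against 16.3%), and CACGTG, the E-box that contains ACGTG, in 4 (13.3%, against 7.15%). Each member gave 1 window, that nearest to its annotated 5′ end, while the shares of all windows count every window, also several starts of 1 gene. The 2 shares are thus of unlike units, and their difference was not tested. These are matches of letters and say nothing of binding.

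In saline hearts the most abundant transcripts per kilobase were those of Eno3, Aldoa and Gapdh in both sets. In set B the mean level of Eno3, the muscle enolase, was 1140 CPM per kb, that of Aldoa, the muscle aldolase, 1036 and that of Gapdh 655. Slc2a4, which encodes GLUT4, stood at 103 CPM per kb against 2.73 for Slc2a1, which encodes the basal transporter GLUT1. Hk1 and Hk2 lay side by side at 43.5 and 43.3 CPM per kb, less apart than the spread between hearts. Aldoc, the brain-type aldolase, was the lowest at 0.0396 CPM per kb. Between the saline libraries of the 2 sets, fitted as separate hearts, 5 members were lower in set B and none higher. Of all genes 1.45% were lower and 2.8% higher (4.26% together). The members were Pgk1 (log2 -0.95 ± 0.12, adjusted p = 7.96e-06), Gapdh (-0.78 ± 0.15), Pgam1 (-0.66 ± 0.16), Mpc1 (-0.54 ± 0.15) and Ldhb (-0.52 ± 0.11). Same-numbered saline libraries of the 2 sets varied alike for some genes, named here after their values were seen. Libraries 1 to 3 held 1526, 7138 and 1048 reads of Irs2 in set A and 2188, 8472 and 1487 in set B. For Pcx they held 1243, 521 and 1548 against 1433, 545 and 1603. Whether the 2 sets hold the same 3 hearts was not tested, so the fit may have ignored a pairing. The comparisons of treatments therefore stay within a set unless stated.

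PTU alone lowered much of the pathway. Against saline in set B, 15 of the 31 genes fell and 3 rose, where 15.1% of all genes tested fell and 14.3% rose (29.4% together). The median log2 fold change of the 31 was -0.35, against 0.01 over all genes. Hk2, Pfkfb1 and both subunits of the mitochondrial pyruvate carrier fell the most, and Hk1, Slc2a1 and Aldoc rose. By step, 2 of the 4 genes of uptake and phosphorylation fell and 2 rose, 3 of the 9 of upper glycolysis fell and 1 rose, and 4 of 8 of lower glycolysis, 3 of 5 of pyruvate and lactate and 3 of 5 of glycogen fell. The other 13 members had log2 fold changes between -0.39 (Pfkfb2) and 0.35 (Pfkl) and were not called. In the grid of fold changes, the columns with PTU are mostly blue and the columns with blockers alone are pale.

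**Figure D1:**
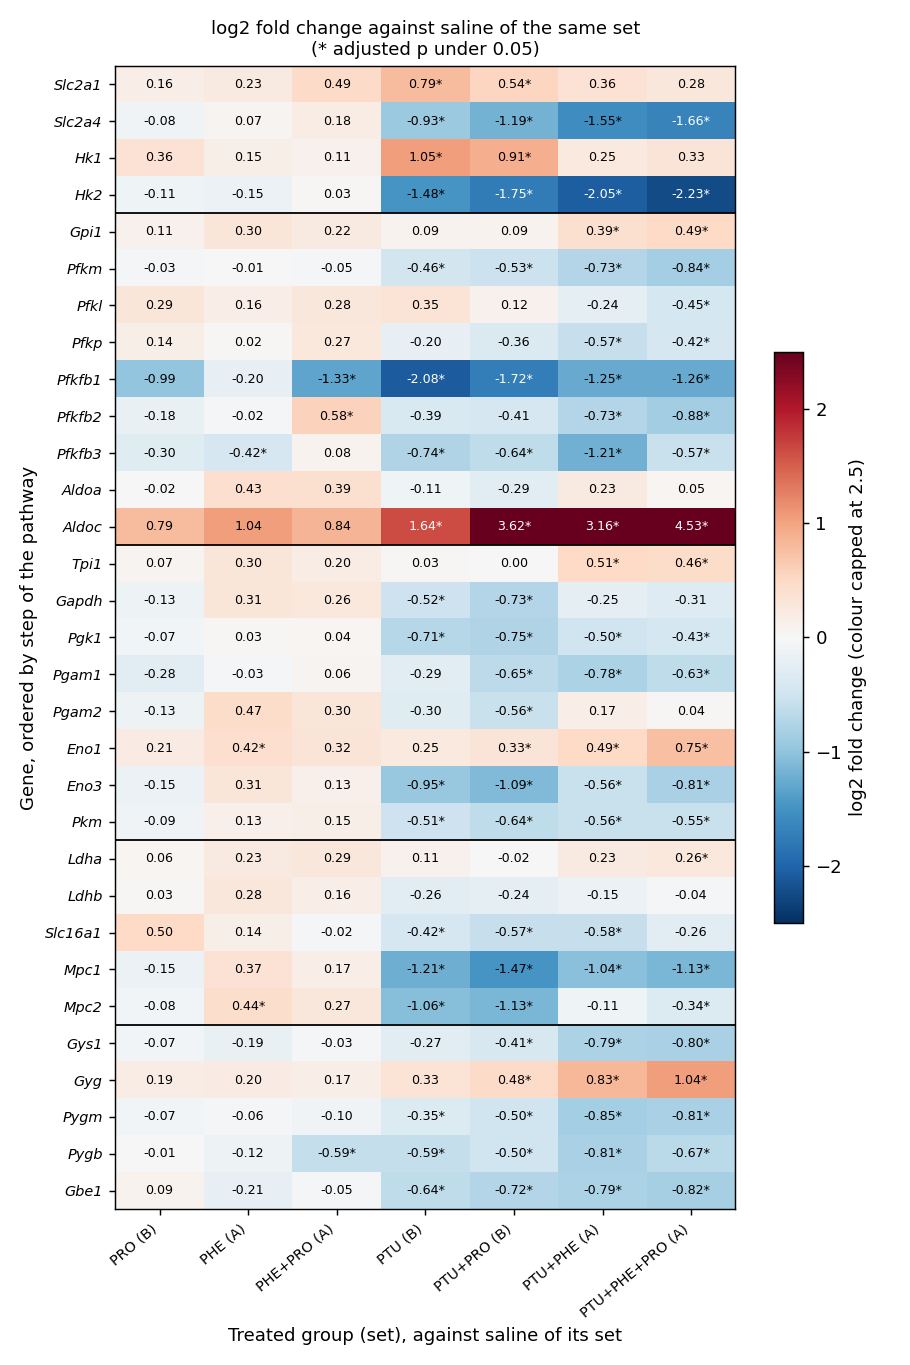
Log2 fold change of the 31 genes (rows, by step of the pathway) in each treated group against saline of its own set (columns, n = 3 against 3), with an asterisk at an adjusted p under 0.05. Hk2 and Slc2a4 are called lower in all 4 columns with PTU and are not called in the columns without it, while Hk1 and Slc2a1 carry an asterisk with PTU and with PTU+PRO only.

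In the uptake and phosphorylation step the isoforms parted. Hk2 (ENSMUSG00000000628, mm10 chr6:82725025-82774454, minus strand), the hexokinase of insulin-sensitive muscle, stood at 238, 237 and 254 CPM in the 3 saline hearts of set B and at 87.1, 84.1 and 90.7 CPM with PTU. The groups did not overlap, and the fall was 2.78-fold (log2 -1.48 ± 0.10, adjusted p = 4.57e-11). Hk1 (ENSMUSG00000037012, chr10:62268855-62379908, minus strand), the hexokinase of most tissues and of the fetal heart, stood at 217, 211 and 204 CPM with saline and at 442, 442 and 428 with PTU, a 2.07-fold rise without overlap (log2 1.05 ± 0.15, adjusted p = 1.12e-05). The transporters moved the same way. Slc2a4 (ENSMUSG00000018566, chr11:69942539-69948188, minus strand) fell from 279, 263 and 327 CPM to 148, 164 and 145 CPM (log2 -0.93 ± 0.14, adjusted p = 1.39e-05). Slc2a1 (ENSMUSG00000028645, chr4:119108711-119137983, plus strand) rose from 8.62, 7.62 and 10.4 CPM to 16.8, 14.1 and 15.3 CPM (log2 0.79 ± 0.15, adjusted p = 0.000346). Neither transporter's groups overlapped.

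**Figure D2:**
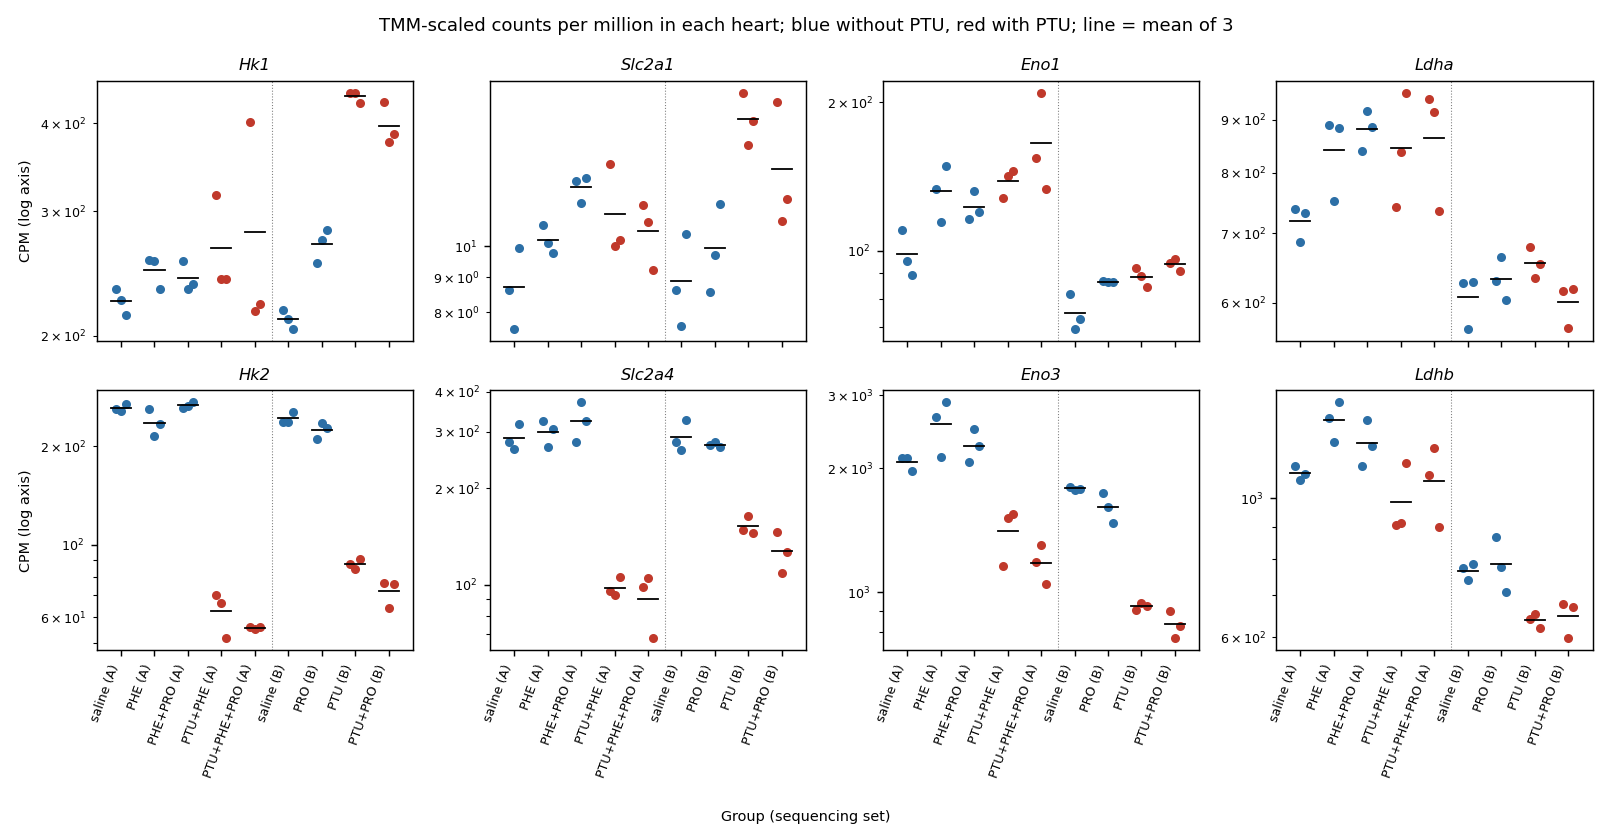
Level of each of the 8 paired isoforms (CPM, log axis) in every heart of the 9 groups, blue without PTU and red with PTU, with a line at the mean of 3. Hk2, Slc2a4 and Eno3 are lower in every heart with PTU than in every heart of the same set without it, whereas Hk1 is clearly parted by PTU in set B and overlaps in set A.

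With a blocker on board the fall of Hk2 and Slc2a4 was present in every background, while the rises of Hk1 and Slc2a1 were not called in set A. Hk2 reached 76.5, 63.9 and 75.7 CPM with PTU+PRO (PRO alone 210 to 236), 70.4, 66.5 and 51.8 CPM with PTU+PHE (PHE alone 215 to 260) and 56.2, 55.2 and 56.0 CPM with PTU+PHE+PRO (PHE+PRO 261 to 272). These are log2 changes of -1.64 ± 0.10, -1.91 ± 0.10 and -2.26 ± 0.10. No heart with PTU reached the range of its background. Slc2a4 fell by 1.11 ± 0.14, 1.61 ± 0.14 and 1.84 ± 0.14 on the log2 scale in the same order. Hk1 rose under PRO, from 253, 273 and 283 CPM to 428, 376 and 386 CPM (log2 0.56 ± 0.15, adjusted p = 0.00706). Under PHE it stood at 316, 241 and 241 CPM with PTU against 256, 255 and 232 without, a difference of 0.10 ± 0.15 that was not called. Under PHE+PRO it stood at 402, 217 and 222 CPM against 255, 233 and 237, and only heart 1 lay above its background. Slc2a1 under PRO stood at 16.3, 10.9 and 11.7 CPM with PTU against 8.58, 9.69 and 11.5 without, which overlapped and was not called (0.38 ± 0.15, adjusted p = 0.06). In set A its PTU differences were 0.13 ± 0.15 under PHE and -0.21 ± 0.15 under PHE+PRO.

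In upper glycolysis the 3 genes that fell all bear on phosphofructokinase, the enzyme that commits sugar to glycolysis. Pfkfb1 (ENSMUSG00000025271, chrX:150588229-150643878, plus strand) encodes a bifunctional enzyme that sets fructose 2,6-bisphosphate, the activator of phosphofructokinase. It stood at 7.71, 5.78 and 9.33 CPM with saline and at 2.15, 1.73 and 1.49 CPM with PTU, a 4.24-fold fall without overlap (log2 -2.08 ± 0.25, adjusted p = 5.18e-07). Under PRO it fell by 0.73 ± 0.24, from 3.77, 4.90 and 2.79 CPM to 1.78, 2.48 and 2.64 CPM, a call lost without PRO heart 2 or PTU+PRO heart 1, and under PHE by 1.05 ± 0.24. Under PHE+PRO it was not called (0.07 ± 0.24), at 3.23, 2.62 and 4.77 CPM without PTU and 3.19, 3.90 and 4.05 CPM with it. The Pfkfb1 gene overlaps the opposite strand gene Apex2, which had 7776 reads over all libraries against 6933 for Pfkfb1, and since the strand setting of the counting is not stated, reads of the pair may be mixed. The same holds for Pfkfb2 with Yod1, Pfkp with Pitrm1 and Gys1 with Ruvbl2. Pfkfb3, the inducible form of the same enzyme, fell from 11.2 to 12.6 CPM to 6.10 to 8.19 CPM (-0.74 ± 0.14), and Pfkm, the muscle phosphofructokinase, from 910 to 969 CPM to 644 to 699 CPM (-0.46 ± 0.09). Their groups did not overlap. Pfkl, the liver form, was at 140, 136 and 134 CPM with saline and 184, 166 and 172 CPM with PTU, groups that did not overlap but missed the call (0.35 ± 0.14, adjusted p = 0.0675). Under PRO it was lower with PTU, at 156, 143 and 146 CPM against 170, 171 and 162 CPM without, again with no overlap. Its log2 fold change with PTU was below 0 in 3 of the 4 backgrounds, and it was called lower in 2. Pfkp, the platelet form, Pfkfb2, the heart form of the bifunctional enzyme, Gpi1, which makes fructose 6-phosphate, and Aldoa were not called after PTU alone.

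Aldoc (ENSMUSG00000017390, chr11:78322968-78327781, plus strand) was the rarest member and had the largest rise. Saline hearts of set B held 6, 2 and 11 reads of it and PTU hearts 26, 35 and 12, or 0.114, 0.0424 and 0.197 CPM against 0.382, 0.513 and 0.232 CPM. The rise was called (log2 1.64 ± 0.54, adjusted p = 0.0238), with no overlap between groups, and leaving out saline heart 1 or 2 or PTU heart 1 or 2 of set B ended the call (adjusted p = 0.0514 to 0.114). With a blocker added to PTU the levels were 1.10, 1.85 and 1.57 CPM with PTU+PRO, 1.33, 1.48 and 1.51 CPM with PTU+PHE, and 2.59, 6.06 and 2.52 CPM with PTU+PHE+PRO. Against the same blockers without PTU these were rises of 2.83 ± 0.46, 2.12 ± 0.44 and 3.68 ± 0.46 on the log2 scale. Aldoc thus rose with PTU in all 4 backgrounds, and in no library did it have more than 253 reads.

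In lower glycolysis the muscle enolase and the shared enzymes fell, and the triose and mutase steps were not called. Eno3 (ENSMUSG00000060600, chr11:70657202-70662513, plus strand) stood at 1804, 1770 and 1781 CPM with saline and at 907, 943 and 929 CPM with PTU, a 1.93-fold fall without overlap (log2 -0.95 ± 0.12, adjusted p = 1.16e-06). Eno1 (ENSMUSG00000063524, chr4:150236721-150248879, plus strand), the enolase of the fetal heart and of most tissues, stood at 81.9, 69.4 and 72.7 CPM and at 92.3, 88.8 and 84.5 CPM. The groups did not overlap and the gene was not called (0.25 ± 0.12, adjusted p = 0.137). Pgk1, phosphoglycerate kinase, fell by 0.71 ± 0.12 (136 to 150 CPM against 81.8 to 90.9), Gapdh by 0.52 ± 0.15 (921 to 1040 CPM against 654 to 706) and Pkm, pyruvate kinase of muscle and most tissues, by 0.51 ± 0.10 (1204 to 1274 CPM against 847 to 901). Tpi1, triose phosphate isomerase, differed by 0.03 ± 0.13, and the mutases Pgam1 and Pgam2 by -0.29 ± 0.16 and -0.30 ± 0.16. Gapdh has 174 near-identical copies in the annotation, mostly pseudogenes, which took 21.5% of its and their summed reads in saline hearts of set B, and Eno1 has 4, which took 19.1%. With the reads of copies added to each member 18 members were still called, an alternative chosen after seeing the data.

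Eno3 fell in the other 3 backgrounds by 0.94 ± 0.12 (PRO), 0.86 ± 0.12 (PHE) and 0.94 ± 0.12 (PHE+PRO), close to its fall after PTU alone. Its lowest level was 774 CPM in PTU+PRO heart 2 and its highest without PTU 2887 CPM in PHE heart 3. Of the 4 backgrounds, Eno1 was called higher only under PHE+PRO (0.43 ± 0.12, adjusted p = 0.0055). There heart 2 of PTU+PHE+PRO stood at 209 CPM against 154 and 133 in the other hearts. Without heart 2 the difference was 0.21 and not called (adjusted p = 0.115). Gapdh, Pgk1 and Pkm fell in all 4 backgrounds, by 0.52 to 0.61, 0.48 to 0.71 and 0.51 to 0.70.

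Where pyruvate parts ways, PTU alone lowered the carrier into mitochondria, and neither lactate dehydrogenase gene was called. Mpc1 (ENSMUSG00000023861, chr17:8282904-8297661, plus strand), a subunit of the mitochondrial pyruvate carrier, stood at 96.4, 93.6 and 99.5 CPM with saline and at 39.5, 41.8 and 43.5 CPM with PTU (log2 -1.21 ± 0.15, adjusted p = 1.10e-06). Mpc2 (ENSMUSG00000026568, chr1:165460637-165481214, plus strand), its partner, stood between 295 and 316 CPM with saline and at 137, 156 and 143 CPM with PTU (log2 -1.06 ± 0.13, adjusted p = 1.20e-06). Both carriers' groups were far apart, with falls of 2.32-fold and 2.09-fold. The fall of Mpc1 was between 1.30 and 1.40 on the log2 scale under the 3 blocker backgrounds. That of Mpc2 was 1.06 ± 0.13 under PRO and 0.55 ± 0.13 and 0.61 ± 0.13 under PHE and PHE+PRO. Mpc1 has 3 pseudogene copies that took 22.1% of its and their summed reads in saline hearts of set B. Over all libraries the share ran from 18.3% to 35.1% in set B and from 15.2% to 28.3% in set A.

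Ldha (ENSMUSG00000063229, chr7:46841475-46855627, plus strand), the lactate dehydrogenase subunit that favours lactate, stood at 627, 566 and 629 CPM with saline and 678, 634 and 653 CPM with PTU, and was not called in any of the 4 backgrounds. Ldhb (ENSMUSG00000030246, chr6:142490249-142507957, minus strand), the subunit of the adult heart, stood at 775, 740 and 785 CPM and at 642, 653 and 620 CPM. These groups did not overlap and the gene was not called after PTU alone (-0.26 ± 0.11, adjusted p = 0.0663), and was called under PHE (-0.43 ± 0.11, adjusted p = 0.00271). Slc16a1, the monocarboxylate transporter MCT1, fell after PTU from 293 to 313 CPM to 203 to 257 CPM (-0.42 ± 0.12, adjusted p = 0.0104), a call lost without PTU heart 3. Under PRO it fell from 401, 457 and 429 CPM to 217, 192 and 203 CPM (-1.07 ± 0.12) and under PHE by 0.72 ± 0.12.

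Of the glycogen genes the breakdown enzymes and the branching enzyme fell. Pygb, the brain form of glycogen phosphorylase, went from 834 to 910 CPM to 562 to 582 CPM after PTU (-0.59 ± 0.10, adjusted p = 4.05e-05). Pygm, the muscle form, went from 1022 to 1110 CPM to 814 to 853 CPM (-0.35 ± 0.09), and Gbe1, the branching enzyme, from 44.4 to 47.6 CPM to 27.6 to 30.8 CPM (-0.64 ± 0.14). None of the 3 had overlapping groups. Gys1, the muscle glycogen synthase, was at 130, 137 and 140 CPM against 111, 115 and 112 CPM (-0.27 ± 0.11, not called). Gyg, glycogenin, which primes new glycogen, was at 121, 116 and 123 CPM against 160, 149 and 144 CPM (0.33 ± 0.14, adjusted p = 0.0736). Gys1 was called in the other 3 backgrounds, where it fell by 0.34 ± 0.11 under PRO (a call lost without PRO heart 1 or PTU+PRO heart 2 or 3), 0.59 ± 0.11 under PHE and 0.78 ± 0.11 under PHE+PRO. In set A Gyg rose by 0.63 ± 0.14 and 0.87 ± 0.14, to 200, 213 and 292 CPM and to 216, 354 and 241 CPM. Gyg was highest in PTU+PHE heart 3 and PTU+PHE+PRO heart 2, which are also the lowest libraries on the length measure, and the part of that measure in the rise was not tested beyond the fits that leave them out or correct for length, in which both rises kept their call.

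**Figure D3:**
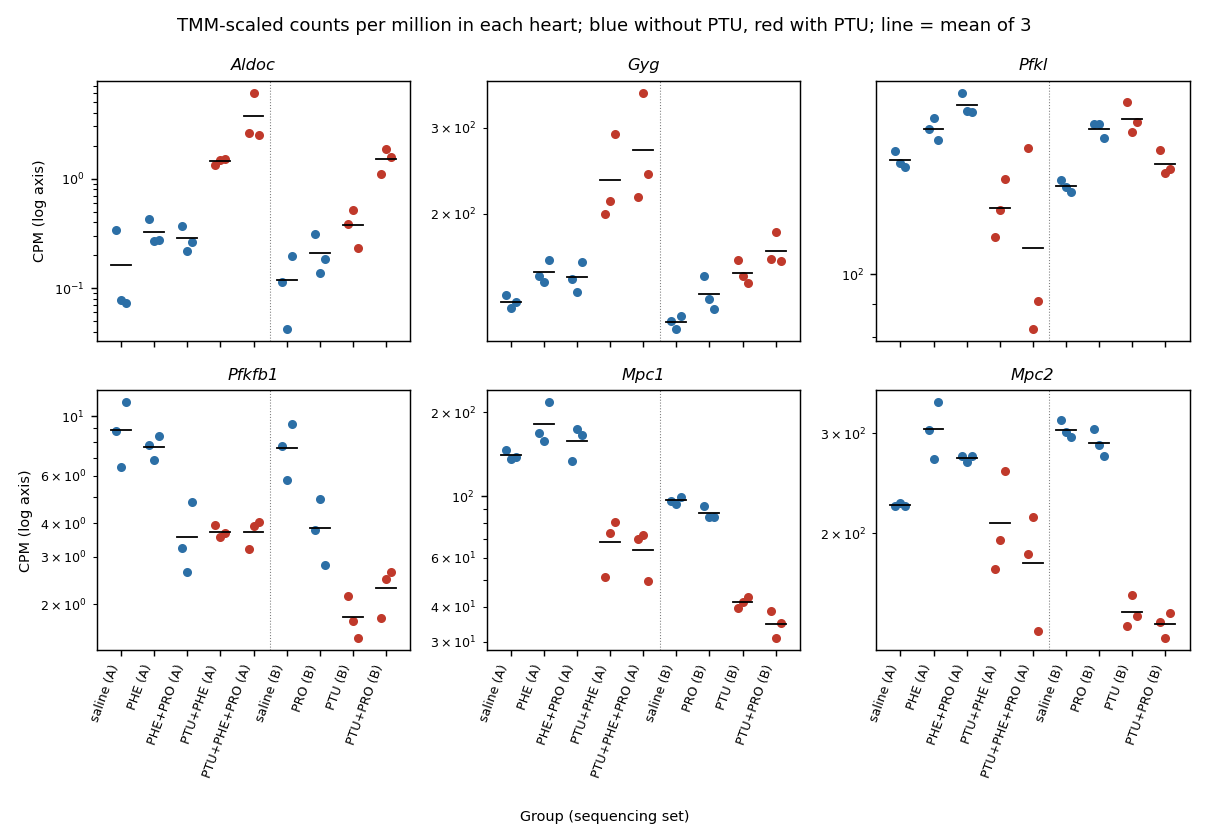
Level (CPM, log axis) of 6 further members in every heart of the 9 groups, blue without PTU and red with PTU, with a line at the mean of 3. In each of the 4 backgrounds every heart with PTU lies above those without for Aldoc and Gyg, and Mpc1 is lower in every PTU heart of both sets. Pfkl with PTU lies above saline in set B, and lies below its background under PRO in set B and under PHE and PHE+PRO in set A.

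The ratio of fetal to adult isoforms within each library does not depend on scaling. Hk1 over Hk2 lay between 0.80 and 1.24 in the 6 hearts of set B without PTU and between 4.72 and 5.89 in the 6 with it. In set A it lay between 0.80 and 1.19 without PTU and between 3.62 and 7.16 with it. Slc2a1 over Slc2a4 rose 3.30-fold after PTU alone, Eno1 over Eno3 2.29-fold and Ldha over Ldhb 1.30-fold. Over the 4 backgrounds that share no library (saline, PRO, PHE and PHE+PRO) the mean log2 change with PTU was 2.29 for the hexokinase ratio, 1.64 for the transporters, 1.14 for the enolases and 0.30 for lactate dehydrogenase. For each the exact permutation p, two-sided and permuted within backgrounds, was 1.25e-05, the smallest it can give, with the same value after adjustment over the 4 pairs, and all 12 hearts with PTU lay above the 3 hearts of their own background. In a single background an exact test of 3 hearts against 3 cannot go below p = 0.1. The permutation takes each heart as a separate unit, and no label says which were littermates, within or between backgrounds. The lactate dehydrogenase ratio also differed between sets: it was 0.64 to 0.67 in saline hearts of set A and 0.77 to 0.81 in those of set B, so that set B without PTU overlapped set A with PTU.

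**Figure D4:**
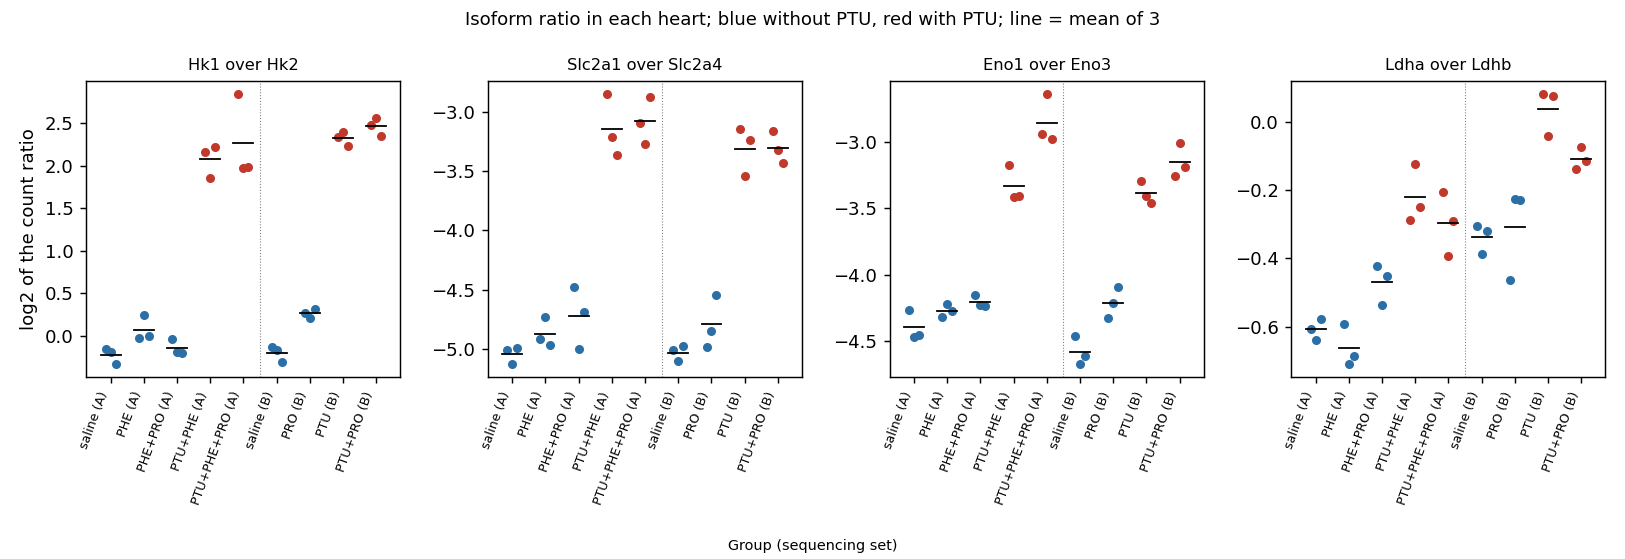
Log2 ratio of fetal to adult isoform counts in every heart of the 9 groups, blue without PTU and red with PTU, with a line at the mean of 3. For every pair the red points of a background lie above its blue points, with mean changes of 2.29, 1.64, 1.14 and 0.30 from left to right.

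The genes called behind each ratio were as follows. In set B both hexokinases were called with PTU, Hk1 higher and Hk2 lower, and in set A Hk2 alone was. The change of the enolase ratio was carried mostly by Eno3, called in all 4 backgrounds, whereas Eno1 was called in 1 of them. Against saline, Eno1 was called higher with PTU+PRO, PTU+PHE and PTU+PHE+PRO. Without PTU, the ratios in blocker groups differed from saline by at most 1.38-fold. Hk1 over Hk2 was 1.38-fold higher with PRO than with saline and 1.23-fold higher with PHE, without overlap in either case, and 1.06-fold higher with PHE+PRO, with overlap. Eno1 over Eno3 was 1.29-fold higher with PRO and 1.14-fold higher with PHE+PRO, Slc2a1 over Slc2a4 1.13-fold higher with PHE and Ldha over Ldhb 1.10-fold higher with PHE+PRO, each without overlap.

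Across the 4 backgrounds 11 of the 31 genes were lower with PTU in each, where 7.83% of all genes were: Slc2a4, Hk2, Pfkm, Gapdh, Pgk1, Eno3, Pkm, Mpc1, Mpc2, Pygm and Gbe1. They include at least 1 gene of each step. Aldoc was the single member higher in all 4, where 6.25% of all genes were. Gpi1, Aldoa, Tpi1 and Ldha were called in none of the 4. The sign of the log2 fold change was negative in all 4 backgrounds for 21 members (25.6% of all genes) and positive in all 4 for 4, Hk1, Aldoc, Eno1 and Gyg (28% of all genes). By background, PTU lowered 17 and raised 2 under PRO, where 15.2% of all genes fell and 15% rose (30.2% together). It lowered 21 and raised 2 under PHE, where 18.6% fell and 18.2% rose (36.8% together). Under PHE+PRO it lowered 17 and raised 3, where 22.3% fell and 24.7% rose (47% together).

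**Figure D5:**
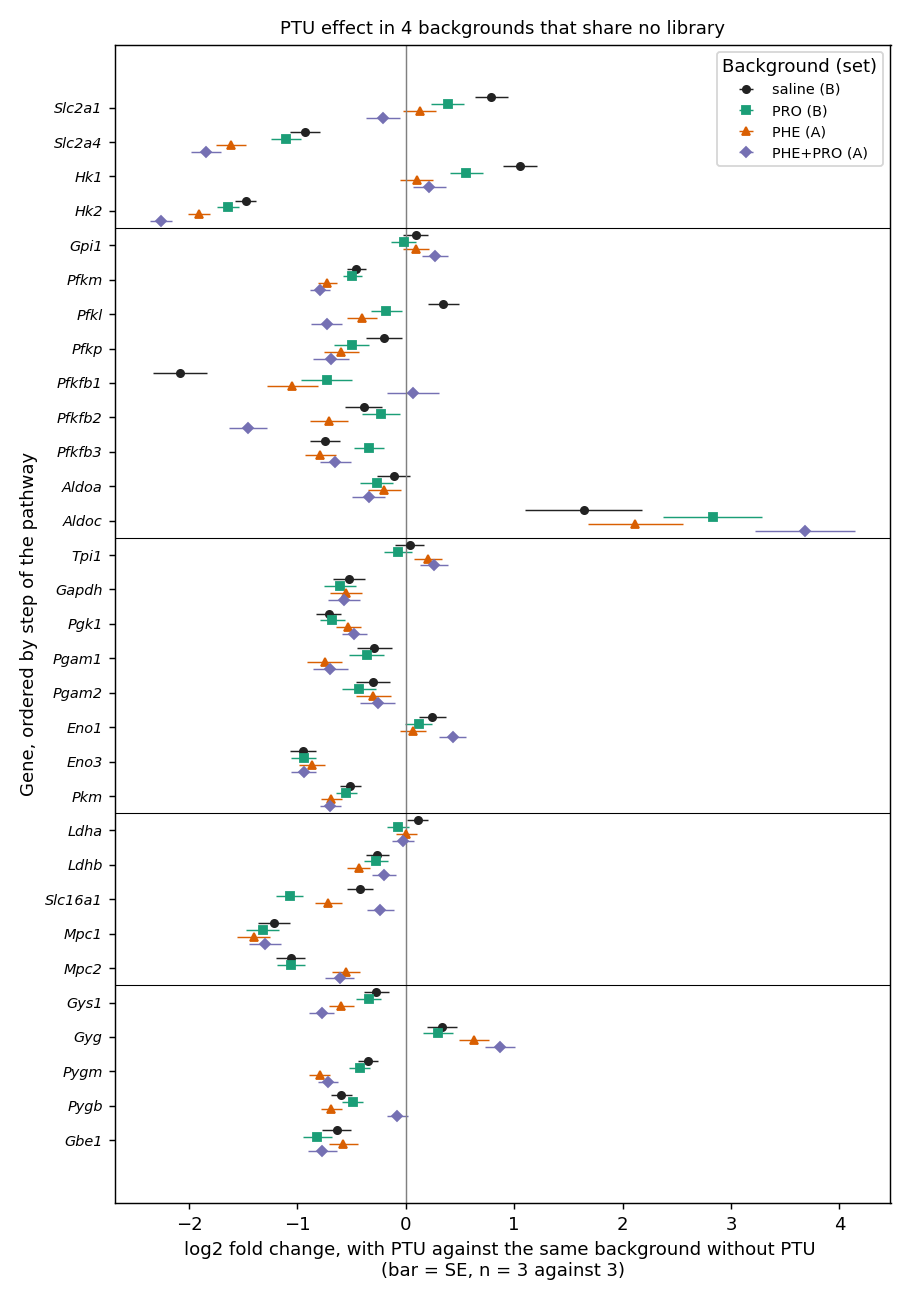
Log2 fold change with PTU against the same background without it (x axis, bar = SE, n = 3 against 3) for the 31 genes by step (y axis), in 4 backgrounds that share no library. Hk2, Slc2a4, Mpc1 and Eno3 lie left of 0 in all 4, Aldoc lies right of it, and Hk1 and Slc2a1 lie farthest right after PTU alone.

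Against saline of their own set, 18 members fell and 5 rose with PTU+PRO, where 18.1% of all genes fell and 17.7% rose (35.9% together). With PTU+PHE 17 fell and 5 rose, where 25.2% fell and 28.2% rose (53.4% together), and with PTU+PHE+PRO 18 fell and 6 rose, where 26% fell and 28.7% rose (54.7% together). The median log2 fold changes of the 31 were -0.50, -0.56 and -0.43, against 0.01, 0.04 and 0.04 over all genes. These comparisons share saline libraries with those of single agents in the same set. In set A, Gpi1 and Tpi1 were among the genes that rose, Gpi1 by 0.39 ± 0.12 with PTU+PHE and 0.49 ± 0.12 with PTU+PHE+PRO, and Tpi1 by 0.51 ± 0.13 and 0.46 ± 0.13. Without PTU+PHE heart 3 the first value of each was 0.28 (Gpi1, adjusted p = 0.0713) and 0.29 (Tpi1, adjusted p = 0.0517), and without PTU+PHE+PRO heart 2 the second value of Tpi1 was 0.23 (adjusted p = 0.113), so these 3 calls were lost. Those hearts are the libraries lowest on the length measure. Against the same blockers without PTU, Gpi1 and Tpi1 were not called. Gpi1 stood at 449 to 482 CPM with saline of set A, 549 to 602 with PHE and 568 to 681 with PTU+PHE. For Tpi1 these levels were 687 to 790, 846 to 999 and 846 to 1325 CPM. Eno1 rose too, from 89.5 to 110 CPM with saline to 128, 142 and 145 CPM with PTU+PHE, and by 0.75 with PTU+PHE+PRO. In set B it rose by 0.33 with PTU+PRO, a call lost without saline heart 2 or 3 or any PTU+PRO heart. Ldha rose by 0.26 with PTU+PHE+PRO. That call was lost without any 1 saline heart, without PTU+PHE+PRO heart 1 or 2, and with the length correction. With PTU+PHE, Hk2 (-2.05 ± 0.10), Slc2a4 (-1.55 ± 0.14), Pygm (-0.85 ± 0.09), Pfkfb3 (-1.21 ± 0.14) and Pygb (-0.81 ± 0.10) had the smallest p. With all 3 agents Hk2 fell by 2.23 ± 0.10, Slc2a4 by 1.66 ± 0.14, Pfkm by 0.84 ± 0.09 and Pygm by 0.81 ± 0.09, and Aldoc rose by 4.53 ± 0.49.

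With the blockers without PTU few of these genes were called, where 0.272% to 14.8% of all genes were. PRO against saline called none of the 31 (0.272% of all genes called, 0.167% higher and 0.105% lower), with 5 members at an unadjusted p under 0.05 and 2 called by DESeq2. The nearest were Pfkfb1 (-0.99 ± 0.24, adjusted p = 0.0684) and Slc16a1 (0.50 ± 0.12, adjusted p = 0.08). PHE against saline called 3, where 8.14% of all genes rose and 6.64% fell (14.8% together): Eno1 rose by 0.42 ± 0.12, Mpc2 rose by 0.44 ± 0.13 and Pfkfb3 fell by 0.42 ± 0.14. All 3 calls were lost when saline heart 2 or 3 or PHE heart 1 or 3 was left out. PHE+PRO against saline called 3, where 2.51% rose and 3.09% fell (5.59% together): Pygb fell by 0.59 ± 0.10 (946, 880 and 864 CPM against 553, 550 and 682), Pfkfb1 fell by 1.33 ± 0.24 (6.49 to 11.3 CPM against 2.62 to 4.77), and Pfkfb2 rose by 0.58 ± 0.17. The Pygb and Pfkfb1 groups did not overlap, and the call of Pfkfb2 was lost without saline heart 1 or 2 or PHE+PRO heart 1 or 2a.

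Adding PRO to PHE gave 4 calls, where 3.1% of all genes rose and 2.71% fell (5.82% together): Pygb (-0.47 ± 0.10), Pfkfb1 (-1.12 ± 0.24), Pfkfb3 (0.50 ± 0.14) and Pfkfb2 (0.61 ± 0.17), the last of which was at 64.1, 91.9 and 55.0 CPM with both blockers and 41.6 to 49.6 CPM with PHE. The calls of Pfkfb2 and Pfkfb3 were lost when PHE heart 1 or 2 or PHE+PRO heart 1 was left out, that of Pfkfb2 also without PHE heart 3 or PHE+PRO heart 2a and that of Pfkfb3 without PHE+PRO heart 2b. Adding PRO to PTU+PHE called Pfkfb3 alone (0.64 ± 0.14, where 1.51% of all genes rose and 1.36% fell, 2.87% together), a call lost without PTU+PHE heart 3 or PTU+PHE+PRO heart 3. Adding PRO to PTU called Aldoc alone (1.98 ± 0.42, where 0.288% rose and 0.356% fell, 0.643% together), a call lost without PTU heart 1 or 3 or PTU+PRO heart 2 or 3.

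The effect of PTU differed between backgrounds for a few members. In set B no member had a called interaction of PTU and PRO (0.0157% of all genes called, 0.0105% upward and 0.00523% downward, 4 members at an unadjusted p under 0.05, and 1 by DESeq2). In set A, under PHE, Pygb did (0.61 ± 0.14, adjusted p = 0.0276, where 0.471% of all genes were called upward and 0.575% downward, 1.05% together): PTU lowered it by 0.69 ± 0.10 without PRO, from 810 to 843 CPM to 455 to 569 CPM, while with PRO it was at 550 to 682 CPM without PTU and 493 to 604 CPM with it. Leaving out any PHE heart, PHE+PRO heart 1 or 2a, PTU+PHE heart 1 or 2, or PTU+PHE+PRO heart 2 ended that call (adjusted p = 0.0565 to 0.08). The effect of PTU under PHE minus its effect alone was called for Hk1 (-0.95 ± 0.22, adjusted p = 0.0173), Pfkl (-0.75 ± 0.20, adjusted p = 0.0365) and Slc2a4 (-0.69 ± 0.19, adjusted p = 0.0454), where 4.1% of all genes were called, 1.4% upward and 2.69% downward. The call of Hk1 was lost without PHE heart 1 or PTU+PHE heart 2. The calls of Pfkl and Slc2a4 were each lost in 10 of the 12 fits that leave out 1 heart, Pfkl keeping its call without PTU+PHE heart 1 or 3 and Slc2a4 without PHE heart 2 or saline heart 3 of set B. Under PHE+PRO minus under PRO it was called for Pfkfb2 (-1.23 ± 0.25), Slc16a1 (0.83 ± 0.17), Hk2 (-0.61 ± 0.14) and Slc2a4 (-0.73 ± 0.19), where 11.7% of all genes were called, 5% upward and 6.68% downward. The last call was lost without PTU+PRO heart 1 (adjusted p = 0.0594). In a fit with the replicate number as a block, which drops PHE+PRO hearts 2a and 2b, the differences were smaller for 3 of these genes. They were 0.65 for Slc16a1, -0.56 for Hk2 and -0.48 for Slc2a4. Both comparisons run between set A and set B, so set and PHE cannot be told apart in them, and they were added after the values of the 4 backgrounds had been seen.

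Genes around the pathway were counted for the same comparison of PTU with saline in set B, in which 15.1% of all genes fell and 14.3% rose. Of 12 genes of pyruvate dehydrogenase and its control 8 fell and 1 rose (median -0.63), among them Pdhb, a subunit of its E1 enzyme (-0.97 ± 0.10), Dlat, its E2 enzyme (-0.71 ± 0.08), Pdhx, which tethers its E3 enzyme (-0.80 ± 0.08), and the activating phosphatase Pdp2 (-1.89 ± 0.22). Pdk4, a kinase that inhibits the complex, named after its values were seen, had the steepest fall of the list (-2.84 ± 0.36), from 570, 583 and 858 CPM to 80.9, 113 and 86.6 CPM, and was not called under PRO or PHE+PRO. The gene that rose was Pdk3, another such kinase (1.08 ± 0.17). Of 15 shuttle and gluconeogenic genes 10 fell and 1 rose (median -0.77), led by the aspartate aminotransferases Got2 (-1.10 ± 0.10) and Got1 (-1.09 ± 0.11) and the glycerol phosphate dehydrogenases Gpd1 (-1.13 ± 0.13) and Gpd2 (-1.21 ± 0.14). Apart from the 2 kinases, the 8 genes named here were called lower in all 4 backgrounds.

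Of 17 tested other isoforms of the same steps 6 fell and 4 rose (15.1% and 14.3% of all genes). Ldhd, the D-lactate dehydrogenase, fell by 2.02 ± 0.15, Bsg, the chaperone of monocarboxylate transporters, by 1.31 ± 0.15 (1043 to 1194 CPM against 430 to 476), and Slc16a7, the transporter MCT2, rose by 1.46 ± 0.20. Of 22 genes of glycogen regulation and debranching 6 fell and 4 rose, against the same shares of all genes. Phkg1, the muscle catalytic subunit of phosphorylase kinase, fell by 2.81 ± 0.54, Pgm1, phosphoglucomutase, by 0.66 ± 0.11 and Phkb, a regulatory subunit of the kinase, by 0.48 ± 0.11, while Ppp1r3e, a glycogen-targeting phosphatase subunit, rose by 1.28 ± 0.29. Stbd1, of the same list and named after its values were seen, had more reads with PTU and varied widely between hearts. It held 141, 127 and 117 reads with saline and 2645, 489 and 2446 with PTU. Under PHE it held 216, 159 and 143 reads without PTU and 973, 3880 and 1205 with it.

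Of 16 tested genes of the pentose phosphate and hexosamine branches 3 fell and 1 rose, where 15.1% of all genes fell and 14.3% rose. The rise was that of transketolase, Tkt (0.63 ± 0.10), and the steepest fall that of the aldose reductase Akr1b3 (-1.05 ± 0.11). Of 23 genes of insulin and AMPK signalling 6 fell and 2 rose, the latter Prkag2, a regulatory subunit of AMPK (1.68 ± 0.15, 26.3 to 32.4 CPM against 89.2 to 94.8), and Prkab2, another (0.41 ± 0.08), while the insulin kinase Akt2 fell by 0.44 ± 0.09. Of 23 tested regulators and HIF targets 7 fell and 2 rose, the latter Txnip, which restrains glucose uptake (1.12 ± 0.36), and the growth regulator Myc (0.70 ± 0.20), both named after their values were seen. Mlxipl, the glucose-sensing factor ChREBP, fell by 2.62 ± 0.22 (32.0 to 45.6 CPM against 5.27 to 6.55), Egln3, a prolyl hydroxylase that HIF induces, by 2.70 ± 0.28, the HIF target Higd1a by 1.49 ± 0.13 and Epas1, which encodes HIF-2 alpha, by 0.84 ± 0.10.

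Markers of heart cell types moved with PTU as well, and their part in the results above was not tested. The counts of markers called below are for PTU against saline in set B, where 15.1% of all genes tested fell and 14.3% rose. The defining cardiomyocyte markers were all detected, and their summed level, which includes the thyroid-dependent myosin Myh6, went from 68734 to 78719 CPM with saline to 35565 to 40177 CPM with PTU in set B, with 5 of 9 lower. Macrophage markers went from 173 to 200 CPM to 81.0 to 87.6 CPM with 8 of 8 lower, and endothelial markers from 1748 to 1773 CPM to 1377 to 1499 CPM with 4 of 8 lower. Fibroblast markers stood at 4903 to 5360 CPM and 5481 to 5882 CPM, with 1 of 7 higher and 2 lower, and smooth muscle and pericyte markers at 1587 to 1696 CPM and 1164 to 1272 CPM, with 3 of 7 higher and 2 lower. The adipocyte list summed to 27.3 to 37.7 CPM with saline, with Lep, Cidec and Adipoq at 0. The skeletal muscle list, with Myh1 at 0 in saline hearts, went from 2141 to 2331 CPM to 1478 to 1587 CPM, with 2 of its 6 tested genes lower and 1 higher. Granulocyte markers were higher in every group with PHE, 11.6 to 115 CPM in set A hearts with PHE against 3.64 to 7.22 CPM in saline hearts of set A.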

How the data were processed

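The 27 libraries were made from RNA of frozen hearts with TruSeq preparation. Whether any heart was sequenced in both sets is not stated in the labels. The authors deposited raw counts, whole-number reads per gene with no normalization, made with cutadapt 1.9, STAR 2.5.2b and featureCounts 1.5.1 on mm10, per the submitters' processing notes. Which annotation was counted, whether strand was used, and how reads with several matches were handled is not given in the sources used here. The header gives 2 columns the name of PHE+PRO heart 2; they are called 2a and 2b, and neither has a replicate number. The sex of the hearts is not in the labels and was not modelled.

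Genes were filtered with filterByExpr (minimum count 10, minimum total 15), scaled by TMM and fitted in edgeR 4.0.16 (R 4.3.3) with 9 group means, robust quasi-likelihood dispersion, a prior count of 0.125 and 18 residual degrees of freedom. Tests were two-sided and adjusted with Benjamini-Hochberg over 19119 genes in each of 18 comparisons. The model was tested on simulated data. Isoform ratios are log2 ratios of counts within a library, compared by an exact permutation test. Levels per kb use the exon length of GENCODE vM21, whose blastn matches at 90% identity over 200 bases define near-identical copies. Promoters come from RefSeq. A count of 0 allows up to 3 reads, and such limits cover counting error only.

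Members and lists were chosen with earlier results of these data known. Named are all members called for PTU in set B, the 8 isoforms, up to 10 called members elsewhere and up to 4 per list. The alternatives were a length correction, leaving out each library, a replicate block, fits within 1 set, DESeq2 1.42.0, no filter on low counts and RLE factors.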

Additional observations from a re-analysis of the deposited data

Results flagged for a closer look

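Each of the following is a difference between effects of the same contrast under other conditions, by a test of the difference itself. The loss of Pygb with PTU under PHE was smaller with PRO than without it, by 0.61 on the log2 scale. The effect of PTU under PHE minus its effect alone was -0.95 for Hk1, -0.75 for Pfkl and -0.69 for Slc2a4. The effect of PTU under PHE+PRO minus its effect under PRO was -1.23 for Pfkfb2, 0.83 for Slc16a1, -0.61 for Hk2 and -0.73 for Slc2a4. All but the value for Pygb compare set A with set B, and those comparisons were added after the values of the 4 backgrounds had been seen. In the same order, 1, 3 and 4 of the 31 members were called, where 1.05%, 4.1% and 11.7% of all genes were. The calls of Pygb, Hk1, Pfkl and Slc2a4 were each lost in some fits that leave out 1 heart.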

How the results depend on the processing

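The fewest reads of a member in any library were 2 for Aldoc, 77 for Pfkfb1 and 239 for the next lowest, Pfkfb3, so depth limits the first of these most. With 3 hearts per group, calls near the threshold turned on single hearts. For the members called in a comparison, 2273 of their values under the alternatives kept direction and call, 164 kept direction and lost the call, and 0 reversed. Members that were not called are not in that tally and could cross the threshold, as the counts show. The number of members called changed little in the comparisons of PTU with its background. Leaving out each heart gave 17 to 18 for PTU alone (18 with all hearts), 16 to 21 under PRO, 22 to 23 under PHE and 21 to 22 under PHE+PRO. For PHE against saline (3 called), 5 were called with DESeq2, 0 in the fit of set A alone, 0 with the length correction, 8 without the PHE libraries farthest on the length measure, and 0 to 3 without 1 heart. For PHE+PRO against saline (3), it was 5 with DESeq2 and 1 with the replicate block. For PRO against saline (0), it was 2 without a filter, 2 with DESeq2, 4 in the fit of set B alone, 1 with the block and 1 with the length correction. For PHE+PRO against PHE (4), it was 2 without a filter, 1 in the fit of set A, 0 with the block and 2 to 3 without 1 heart. For PTU+PHE+PRO against PTU+PHE (1), it was 2 without a filter, 2 with DESeq2, 0 in the fit of set A, 2 with the length correction and 0 to 3 without 1 heart. For PTU+PRO against PTU (1), it was 4 in the fit of set B and 0 to 1 without 1 heart. For the interaction in set B (0), it was 1 without a filter, 1 with DESeq2 and 3 in the fit of set B. For that in set A (1), it was 2 without a filter, 2 with DESeq2, 0 in the fit of set A, 0 with the block, 0 without the PHE libraries farthest on the length measure, 2 without the libraries under -1 on it, and 0 to 3 without 1 heart. Across sets, the PHE difference (3) gave 7 with DESeq2 and 0 to 5 without 1 heart, and the PHE+PRO difference (4) gave 1 with the block and 3 to 11 without 1 heart. The members' summed CPM averaged 14009 in saline hearts of set B with TMM scaling, 13631 over all assigned reads and 16399 without mitochondrial genes. The mean log2 change of the isoform ratios ranged, without 1 heart, from 2.21 to 2.32 (hexokinases), 1.61 to 1.68 (transporters), 1.11 to 1.15 (enolases) and 0.28 to 0.31 (lactate dehydrogenase). The cause of these changes was not tested. The share of all genes called in each alternative fit is not given here or below. A change in the count of members called can therefore not be told from a change over all genes.

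Within a set, replicate numbers did not pair the hearts of different groups. There the deviations of hearts with the same number had a median correlation of -0.09 over 40 pairs (13 over 0.1). The median was 0.06 over 80 pairs with different numbers. Hearts of set A were not compared with those of set B. These correlations therefore cannot say whether same-numbered saline libraries of both sets are paired. With the replicate block, 18 members were called for PTU, 22 for PTU+PRO, 22 for PTU+PHE and 25 for PTU+PHE+PRO against saline. Among the calls lost with it were those of Gapdh under PHE+PRO (-0.37, adjusted p = 0.17), Eno1 there (0.51, adjusted p = 0.0505) and Slc2a4 for the PHE difference across sets (-0.69, adjusted p = 0.055).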
